A study of Homo sapiens with 9 samples.

Results

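The cofactors, DNA-binding factors and target genes at the output end of the Hippo pathway were examined in OVCA433 cells following MPZL3 knockdown. The set held 10 genes of the 58676 in the count table, taken by symbol: the cofactors VGLL1, VGLL3, VGLL4, YAP1 and WWTR1, the transcription factors TEAD1, TEAD3 and TEAD4, and the target genes CTGF (now CCN2) and CYR61 (now CCN1). All 10 passed the filter on low counts that left 15975 genes for testing. The set was chosen knowing that VGLL1 had no reads left in the knockdown libraries, so the comparisons of these genes with control are given as descriptions, without a test, and the genes are tested only between the 2 hairpins.

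The Hippo pathway is a kinase cascade that responds to cell contact, polarity and mechanical load. When it is active, the MST and LATS kinases phosphorylate YAP (YAP1) and TAZ (WWTR1) and keep them out of the nucleus. When it is inactive, YAP and TAZ bind TEAD factors, which carry the DNA-binding domain, and switch on genes such as CTGF and CYR61. The vestigial-like proteins (VGLL) also lack a DNA-binding domain and occupy TEADs through a surface that overlaps that of YAP and TAZ, and VGLL4 is known as an inhibitor of YAP-TEAD activity.

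OVCA433 is an established cell line derived from an ovarian serous adenocarcinoma. Messenger RNA was sequenced from 3 libraries with a control vector, labelled as wild type, from 3 libraries with shRNA hairpin #1 against MPZL3 and from 3 libraries with hairpin #3, marked A, B and C within each group. All cells were transduced with lentivirus and, per the study's methods, selected with puromycin, and the 3 replicates of each condition were biological. The methods call the control of this line an empty vector in 1 place and a scrambled hairpin in another. The libraries were poly(A)-selected and not directional, so a read could not be assigned to a strand.

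Library totals ran from 16850854 to 23890191 counts, and the Pearson correlation of log2 CPM (read counts scaled for library size with TMM factors) between libraries of a group was 0.989 to 0.995 across genes, which are not independent replicates. The libraries marked A departed from the others of their group in a shared way, and for results that change without them the values are given beside the result or in the closing section. MPZL3, the targeted cell adhesion gene, lay at 15.6, 21.9 and 21.0 CPM in control libraries A, B and C and between 0.988 and 1.98 CPM in the 6 knockdown libraries (log2 fold change -3.49, SE 0.191, adjusted p = 6.87e-08 by the quasi-likelihood test of edgeR, adjusted by Benjamini and Hochberg over all tested genes). The labelled epithelial origin was checked on 8 markers of serous ovarian epithelium: 7 exceeded 3 counts in every control library, WT1 being the exception, and 5 did so in each hairpin group, where MUC16 was also at 3 counts or fewer.

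Promoter sequences are shown for the genes with a copy of the core TEAD-binding motif, GGAATG or its reverse complement CATTCC, because the proteins of this set act through that element. RefSeq windows on GRCh38.p14 were searched for 7 of the 10 genes, and TEAD1, TEAD4 and CYR61 were not searched here. The 250 bases before each annotated start were read on both strands, overlapping copies counted. Copies were found for 3 of the 7 genes, CTGF, YAP1 and VGLL1, beside 14.3% of the 27305 genes with a window. Of 35116 windows of this length over all genes, 11.9% held at least 1 copy and 0.0826% held 3 or more. The CTGF window (chr6:131951374-131951622, minus strand) held 3 copies, beginning 169, 104 and 95 bases before the start. ANKRD1, a target gene outside the set that is described further on, held 2 copies, 220 and 128 bases before the start (chr10:90921290-90921319 and chr10:90921198-90921227, minus strand). The single copies of YAP1 (chr11:102110273-102110302, plus strand) and VGLL1 (chrX:136532046-136532075, plus strand) lay 162 and 157 bases before their starts. A match is a stretch of letters and was not tested as a binding site. The sequences run 5′ to 3′ on the strand of the gene, with the motif in capitals.
CTGF: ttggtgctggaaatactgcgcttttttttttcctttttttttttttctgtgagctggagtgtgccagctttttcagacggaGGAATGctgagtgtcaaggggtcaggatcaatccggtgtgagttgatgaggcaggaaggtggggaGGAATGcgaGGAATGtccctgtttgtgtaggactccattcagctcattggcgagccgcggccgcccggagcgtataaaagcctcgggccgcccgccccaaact
ANKRD1, distal copy: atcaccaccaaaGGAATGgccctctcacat
ANKRD1, proximal copy: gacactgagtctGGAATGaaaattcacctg
YAP1: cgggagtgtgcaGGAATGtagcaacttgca
VGLL1: taccatgttcctCATTCCtgcaggtgccca

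VGLL1, a TEAD cofactor, was next to CYR61 the most abundant of the 10 genes per kilobase in control cells and was not detected in any knockdown library. VGLL1 (ENSG00000102243, chromosome X, 136532152 to 136556807, hg38) had 2394, 2652 and 2714 reads in control libraries A, B and C, or 116, 132 and 130 CPM. It had 0 reads in each of the 3 hairpin #1 libraries and 0 in each of the 3 hairpin #3 libraries. Set against a floor of 3 reads in the library where 3 reads weigh most, its level was at least 713-fold lower over both hairpins, at least 825-fold lower with hairpin #1 and at least 713-fold lower with hairpin #3. The bounds cover counting error only, since no molecular identifiers were used to tell PCR copies from separate molecules. In bulk samples, fewer cells of a type and less RNA per cell cannot be told apart.

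Markers of other cell types moved in the same libraries. The summed level of the 8 epithelial markers was 10245 to 12318 CPM in control libraries, 5219 to 6668 CPM with hairpin #1 and 5157 to 5781 CPM with hairpin #3. The summed level of 8 fibroblast markers was 18.7 to 22.1 CPM in control, 110 to 447 CPM with hairpin #1 and 503 to 871 CPM with hairpin #3. Of these 8 markers, 3 exceeded 3 counts in every control library and 5 in every library of each hairpin. DCN, PDGFRA, THY1, COL1A2 and COL3A1 were at 3 counts or fewer in all control libraries, and DCN alone was so in all 9 libraries. The mean of PDGFRA, THY1, COL1A2 or COL3A1 with a hairpin was at most 17.7 times the control floor of 3 reads (0.149 CPM). Most of the summed fibroblast level therefore came from LUM, PDGFRB and COL1A1, and it is not split among them here. The 5 leukocyte markers summed to at most 0.935 CPM in any library, and the 4 endothelial markers to between 0.547 and 1.02 CPM in control, 4.16 and 6.65 CPM with hairpin #1 and 5.12 and 7.50 CPM with hairpin #3. The part of these markers in the values of VGLL1 and the other genes was not tested.

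The genes whose pattern was most like that of VGLL1 were sought by the root mean square difference over the 9 libraries of log2(CPM + 0.5), each gene set to its control mean, among 9680 genes averaging 10 CPM or more in control. The 5 nearest were RAB25, a small GTPase of epithelial recycling endosomes (0.218), ESRP1, an epithelial splicing regulator (0.311), GRHL2, a grainyhead-like transcription factor (0.467), MAL2, a protein of apical transport (0.487), and LAD1, a component of anchoring filaments (0.506). Summed over the 6 knockdown libraries they had 10, 6, 15, 102 and 1 reads, against control means of 128, 172, 112, 390 and 196 CPM. They were picked for this likeness, so their levels are a description. For genes near 0 reads in knockdown the measure depends on the control level, so it favours genes with a control level near that of VGLL1. ESRP1, GRHL2 and MAL2 lie on chromosome 8, and RAB25 and LAD1 on chromosome 1. Of these and VGLL1, VGLL1 alone had 0 reads in all 6 knockdown libraries, but LAD1, with 1 read, had a larger bound. Set against the same floor, LAD1 was at least 1111-fold lower over both hairpins, beside 713-fold for VGLL1. The epithelial marker MUC16 also had 0 reads in all 6 knockdown libraries, with a bound of 18.0-fold.

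VGLL3, another vestigial-like cofactor of TEADs, was the only gene of the set that differed between the hairpins beyond both thresholds. VGLL3 (ENSG00000206538, chromosome 3, 86937969 to 86991119) lay at 50.6, 53.1 and 57.0 CPM in control libraries A, B and C. It lay at 46.5, 74.4 and 64.7 CPM with hairpin #1 and at 21.9, 23.8 and 30.4 CPM with hairpin #3. All 3 hairpin #3 libraries were below all hairpin #1 and all control libraries, whereas hairpin #1 overlapped control. Hairpin #3 did not overlap control for 47.9% of all tested genes, and the hairpins did not overlap for 27.7%. The level of VGLL3 with hairpin #3 was 47.4% of control (log2 fold change -1.07, SE 0.164), and that with hairpin #1 was 116% of control (log2 fold change 0.21, SE 0.159). Without hairpin #3 library A the first of these fold changes was -0.98, just under 2-fold. Between the hairpins the log2 difference was -1.28 (SE 0.164, 95% interval -1.64 to -0.93, edgeR adjusted p = 0.000245).

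VGLL4, the vestigial-like protein that competes with YAP for TEADs, was higher in each hairpin #3 library than in each control library. Of all tested genes, 47.9% did not overlap between these groups. VGLL4 (ENSG00000144560, chromosome 3, 11556070 to 11771350) lay at 25.9, 26.6 and 32.1 CPM in control, at 25.2, 41.7 and 32.7 CPM with hairpin #1 and at 34.1, 40.2 and 44.7 CPM with hairpin #3. Hairpin #1 overlapped both other groups. Log2 fold changes against control were 0.23 (SE 0.167) with hairpin #1 and 0.49 (SE 0.167) with hairpin #3. No difference between the hairpins was detected for VGLL4 (log2 difference 0.26, 95% interval -0.10 to 0.62, edgeR adjusted p = 0.378). The gene overlaps ATG7 on the other strand, and reads of overlapping genes could not be separated by strand. In the set, VGLL1, TEAD1, YAP1, WWTR1 and CTGF also overlap other annotated genes.

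VGLL2, the remaining vestigial-like gene, was barely detected and was not tested. It lay at 0.0968, 0.0995 and 0 CPM in control, at 0.794, 0.458 and 0.257 CPM with hairpin #1 and at 0 CPM in all 3 hairpin #3 libraries. Its reads are too few for a fold change to be given.

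YAP1, the main effector of the pathway, was at close to the same level in all 3 groups. YAP1 (ENSG00000137693, chromosome 11, 102110461 to 102233423) lay at 208, 202 and 206 CPM in control, at 219, 208 and 189 CPM with hairpin #1 and at 205, 192 and 189 CPM with hairpin #3. All 3 groups overlapped. The log2 fold changes were -0.00 (SE 0.0898) with hairpin #1 and -0.07 (SE 0.0898) with hairpin #3, and the difference between the hairpins was -0.07 (95% interval -0.27 to 0.12, edgeR adjusted p = 0.683).

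WWTR1, which encodes TAZ, the paralogue of YAP, had a wider spread within control than the difference of either hairpin mean from control. WWTR1 (ENSG00000018408, chromosome 3, 149517235 to 149736714) lay at 105, 76.3 and 73.7 CPM in control, at 110, 88.6 and 84.2 CPM with hairpin #1 and at 81.3, 70.3 and 69.4 CPM with hairpin #3. Library A was the highest of each group, and both hairpins overlapped control. Log2 fold changes against control were 0.15 (SE 0.144) with hairpin #1 and -0.21 (SE 0.145) with hairpin #3, the latter being -0.03 when control library A was left out. The hairpin #3 libraries lay below the hairpin #1 libraries without overlap, but the difference did not pass the test (log2 difference -0.36, 95% interval -0.67 to -0.04, edgeR adjusted p = 0.142). It did pass at a similar size with the replicate letter as a block (edgeR adjusted p = 0.00316), with no filter (adjusted p = 0.0462) and without the libraries marked A (adjusted p = 0.0468). An antisense gene, WWTR1-AS1, overlaps this locus.

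**Figure D1:**
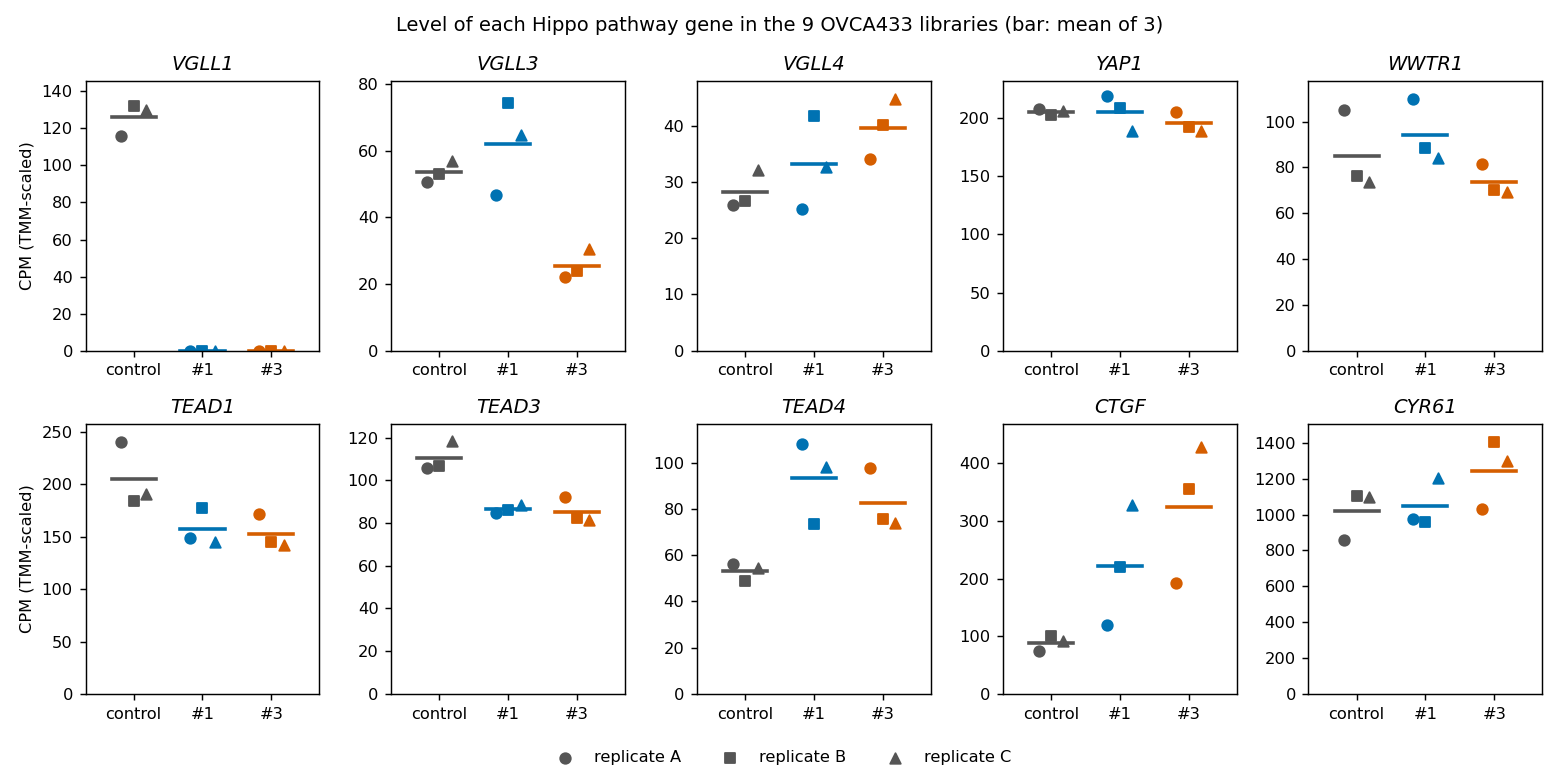
Level of each of the 10 genes in the 9 libraries, 1 panel per gene, as TMM-scaled CPM on a linear axis from 0; circles, squares and triangles are replicates A, B and C and the bar is the mean of 3 libraries. VGLL1 is at 0 in all 6 knockdown libraries, VGLL3 is lowest with hairpin #3 (21.9 to 30.4 CPM), TEAD4 and CTGF lie above control with both hairpins, and YAP1 overlaps in all groups.

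With VGLL1 at 0, the make-up of the cofactor transcripts differed between control and knockdown. Levels were compared between genes as CPM per kilobase of the gene model in the count table. In control, VGLL1 accounted for 61.4% ± 2.60 (SD, n = 3) of the summed CPM per kilobase of the 5 cofactors, YAP1 for 24.6% ± 0.988, WWTR1 for 7.63% ± 1.79, VGLL3 for 3.48% ± 0.145 and VGLL4 for 2.94% ± 0.307. With hairpin #1, YAP1 accounted for 60.6% ± 1.90, WWTR1 for 20.8% ± 2.49, VGLL3 for 9.97% ± 2.36 and VGLL4 for 8.58% ± 2.06. With hairpin #3, YAP1 accounted for 65.3% ± 1.48, WWTR1 for 18.4% ± 1.19, VGLL4 for 11.6% ± 1.77 and VGLL3 for 4.63% ± 0.866. The summed level was 133 ± 3.68 CPM per kilobase in control, 53.8 ± 3.20 with hairpin #1 and 47.5 ± 1.23 with hairpin #3. A share depends on this sum as well as on the gene itself. Between the hairpins, the libraries did not overlap in the share of YAP1, the share of VGLL3 or the sum (exact two-sided permutation p = 0.1 for each, the smallest that 3 against 3 libraries allow, and 0.333 adjusted over 10 tests). The shares rest on the gene model lengths, which need not be those of the transcripts present. Without division by length VGLL1 was 25.3% and YAP1 41.3% in control, so that YAP1 and not VGLL1 was then the largest.

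TEAD1 and TEAD3 were lower and TEAD4 was higher in all 6 knockdown libraries than in all 3 control libraries. Of all tested genes, 33.1% did not overlap between knockdown and control. TEAD factors bind DNA and have little activity without a cofactor, and the 4 paralogues have closely related DNA-binding domains. TEAD1 (ENSG00000187079, chromosome 11, 12674591 to 12944483) lay at 240, 184 and 190 CPM in control, at 149, 177 and 145 CPM with hairpin #1 and at 172, 145 and 142 CPM with hairpin #3. Levels were 76.6% and 74.6% of control with hairpins #1 and #3 (log2 fold changes -0.38 and -0.42, SE 0.126 for each). The gap between the groups was narrow, since the highest knockdown library (177 CPM) came close to the lowest control library (184 CPM). Without the libraries marked A, the hairpin #1 value was -0.21.

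TEAD3 (ENSG00000007866, chromosome 6, 35473597 to 35497076), a TEAD known from placenta, was lower than control with both hairpins by a similar amount. It lay at 106, 107 and 118 CPM in control, at 84.7, 86.2 and 88.4 CPM with hairpin #1 and at 92.0, 82.5 and 81.2 CPM with hairpin #3. Log2 fold changes against control were -0.35 (SE 0.0902) and -0.37 (SE 0.0903). No library of either hairpin reached the control range.

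TEAD4 (ENSG00000197905, chromosome 12, 2959330 to 3040673), the TEAD known for its part in trophectoderm specification, differed most from control within the family. It lay at 56.4, 48.9 and 54.6 CPM in control, at 108, 73.5 and 98.2 CPM with hairpin #1 and at 97.8, 75.7 and 74.0 CPM with hairpin #3. Levels were 175% and 155% of control (log2 fold changes 0.81 and 0.63, SE 0.147 for each), and all knockdown libraries lay above all control libraries. The spread within each hairpin group was wider than in control, with library A the highest of all 3 groups.

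TEAD2, the family member outside the set, averaged 55.6 ± 2.02 CPM in control libraries, 57.8 ± 6.02 CPM under hairpin #1 and 62.9 ± 2.79 CPM under hairpin #3 (SD, n = 3), and the pooled log2 fold change of 0.12 did not pass the test (edgeR adjusted p = 0.352). None of the TEADs was shown to differ between the hairpins. The log2 differences were -0.04 for TEAD1 (95% interval -0.31 to 0.23, edgeR adjusted p = 0.898), -0.02 for TEAD3 (-0.22 to 0.17, adjusted p = 0.927), -0.18 for TEAD4 (-0.49 to 0.14, adjusted p = 0.506) and 0.12 for TEAD2 (-0.09 to 0.33, adjusted p = 0.511).

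The summed level of the 4 TEADs was similar in the 3 groups while their order was not. The sum was 98.1 ± 4.97 CPM per kilobase in control, 104 ± 5.56 with hairpin #1 and 100 ± 8.54 with hairpin #3. TEAD3 was the most abundant TEAD in each control library, at 37.0% ± 2.35 of the sum, and TEAD4 was the most abundant in each knockdown library, at 39.3% ± 5.74 with hairpin #1 and 36.1% ± 2.65 with hairpin #3. TEAD1 went from 20.1% ± 2.41 in control to 14.6% ± 2.47 and 14.7% ± 0.304, and TEAD2 averaged between 18.7% and 21.2%. Without division by length TEAD1 was the largest in all 3 groups (48.2%, 39.8% and 39.8%), while TEAD4 was still higher in both hairpin groups (23.6% and 21.4%) than in control (12.6%). Between the hairpins no share or sum of the TEADs gave an exact permutation p under 0.3.

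**Figure D2:**
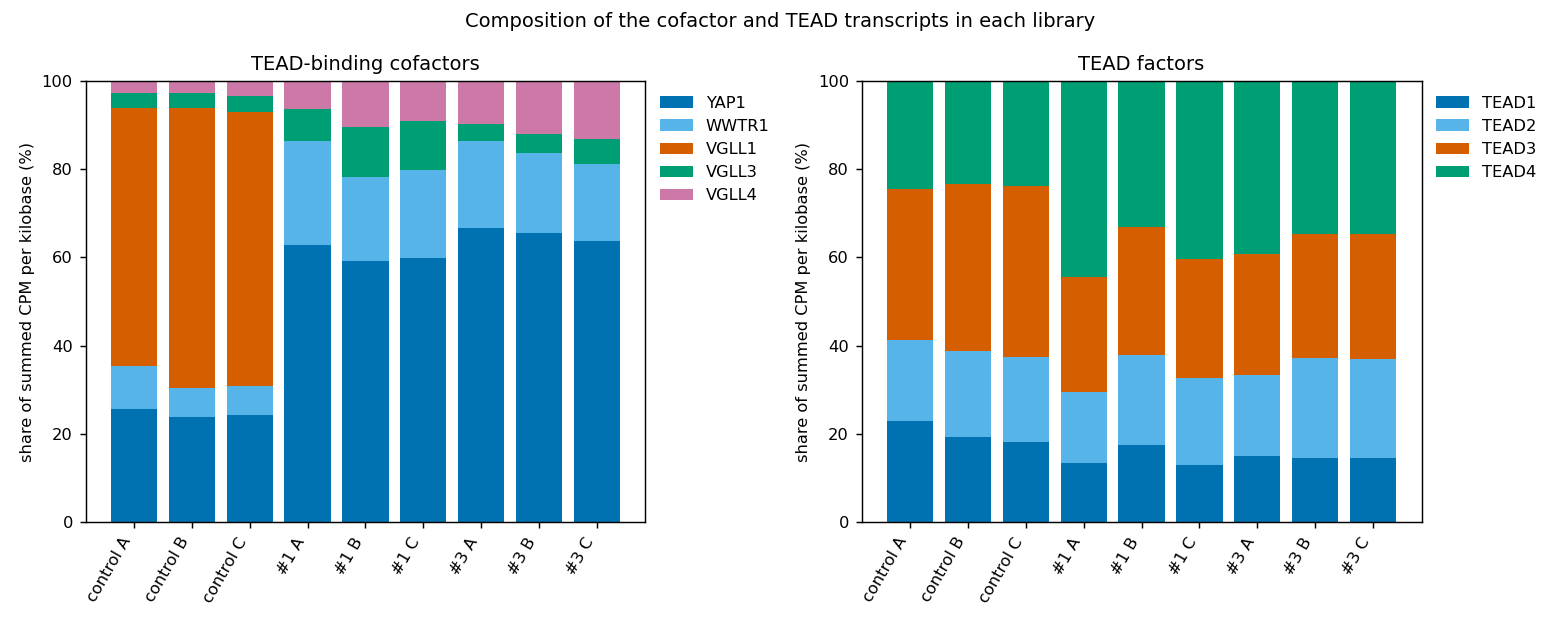
Share of each cofactor (left) and each TEAD (right) in the summed CPM per kilobase of its family, in percent, with 1 stacked bar per library. VGLL1 fills 61.4% of the cofactor bars on average in control and none in knockdown, and TEAD4 exceeds TEAD3 in all 6 knockdown libraries and in none of the 3 control libraries.

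CTGF, a matricellular protein gene and a standard readout of YAP and TAZ, was higher in every knockdown library than in every control library, whereas CYR61, its close relative and the other standard readout, overlapped between all groups. Knockdown and control did not overlap for 33.1% of all tested genes. CTGF (ENSG00000118523, chromosome 6, 131948176 to 131951373) lay at 75.1, 99.7 and 91.9 CPM in control, at 119, 221 and 328 CPM with hairpin #1 and at 192, 355 and 428 CPM with hairpin #3. Levels averaged 250% and 366% of control, with log2 fold changes of 1.32 (SE 0.320) and 1.87 (SE 0.325). Among the 7 genes of the set that were searched, which do not include CYR61, CTGF was the 1 gene with more than 1 copy of the TEAD motif. A link between motif copies and the level of a gene was not tested.

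The libraries of a group differed widely in CTGF. Library A was the lowest in each group, and the highest library of a group exceeded the lowest 1.33-fold in control, 2.75-fold with hairpin #1 and 2.23-fold with hairpin #3. Without the libraries marked A the log2 fold changes were 1.53 and 2.04, and without hairpin #1 library C that of hairpin #1 was 0.93, under the 2-fold threshold. No difference in CTGF between the hairpins was detected (log2 difference 0.55, 95% interval -0.13 to 1.22, edgeR adjusted p = 0.318), although 3 of the alternatives in the closing section put its adjusted p below 0.05 at a similar size. AL133346.1, a gene on the other strand, overlaps CTGF.

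CYR61 (ENSG00000142871, chromosome 1, 85580761 to 85583962) was the most abundant gene of the set per kilobase in every group. It lay at 857, 1106 and 1096 CPM in control, at 974, 957 and 1207 CPM with hairpin #1 and at 1030, 1405 and 1301 CPM with hairpin #3. Log2 fold changes against control were 0.04 (SE 0.146) and 0.29 (SE 0.146), and each hairpin group overlapped control. The difference between the hairpins was 0.25 (95% interval -0.06 to 0.57, edgeR adjusted p = 0.323).

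Taken per kilobase, the order of the 10 genes in control was CYR61 (415 CPM per kilobase), VGLL1 (81.7), CTGF (38.0), TEAD3 (36.2), YAP1 (32.6), TEAD4 (23.4), TEAD1 (19.8), WWTR1 (10.1), VGLL3 (4.63) and VGLL4 (3.91). The libraries of the neighbours CTGF and TEAD3, TEAD4 and TEAD1, and VGLL3 and VGLL4 overlapped in control, so these pairs were not ordered beyond their spread. With both hairpins CYR61 was followed by CTGF (95.2 and 139 CPM per kilobase) and TEAD4 (41.1 and 36.3), and VGLL1 was last. VGLL3 stood above VGLL4 with hairpin #1, where their libraries overlapped, and below it with hairpin #3, where they did not.

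**Figure D3:**
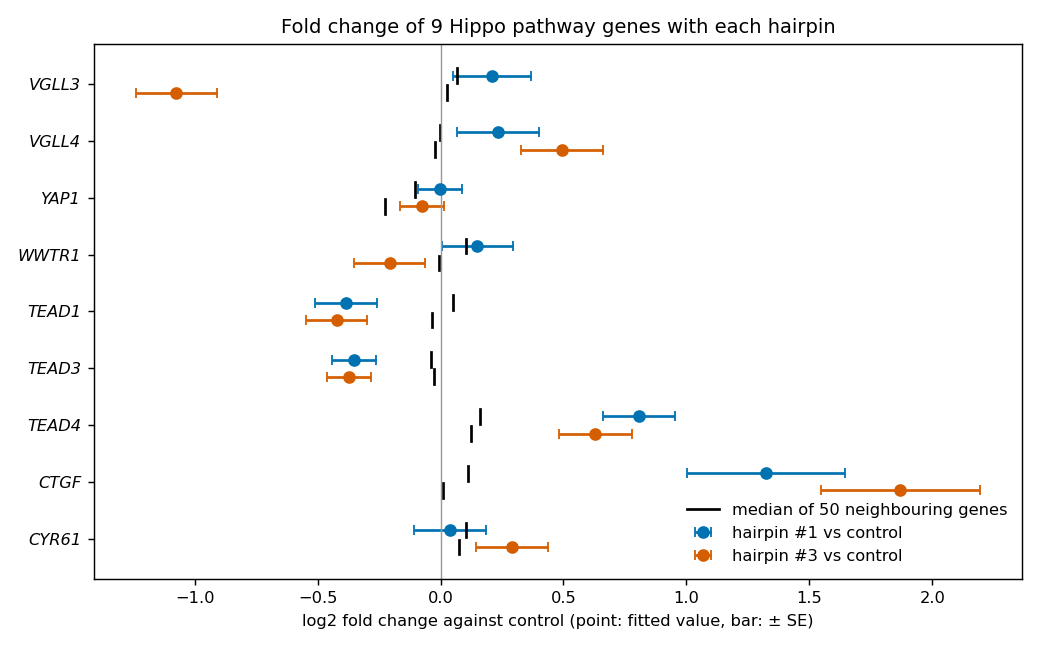
Log2 fold change against control for hairpin #1 (blue) and hairpin #3 (orange) for the 9 genes with reads in all groups. Points are fitted values, bars are ± SE and black ticks mark the median of 50 neighbouring tested genes on the same chromosome. TEAD1, TEAD3, TEAD4 and CTGF lie on the same side of 0 with both hairpins, and VGLL3 is at 0.21 with hairpin #1 and -1.07 with hairpin #3.

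In the pooled comparison of both hairpins with control, 14.7% of all tested genes met an adjusted p under 0.05 and a 2-fold change. The share was 16.3% with hairpin #1 and 15.3% with hairpin #3. Since the set was chosen from this contrast, calls of its 10 genes against control are not counted. The groups did not overlap for 5 of 10 genes in the pooled comparison (33.1% of all tested genes), 5 of 10 with hairpin #1 (47.3%) and 7 of 10 with hairpin #3 (47.9%). VGLL1 is in each of these counts, and its loss was known when the set was chosen. The counts are therefore descriptions. The reason given for the choice concerned knockdown and not the comparison of the hairpins, but earlier results of these data were known. Between the hairpins, 1 of 10 genes (VGLL3) was called beside 3.93% of all tested genes, and 2 of 10 (VGLL3 and WWTR1) did not overlap beside 27.7%.

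The 10 genes lie on chromosomes 1, 3, 6, 11, 12 and X. Each was set beside 50 neighbouring tested genes averaging 10 CPM or more, 25 on each side by start position where available. The neighbours can lie far off, those of VGLL3 running from 57625457 to 101828229 on chromosome 3. The median pooled log2 fold change of the neighbours lay between -0.07 and 0.13 for every gene but YAP1, where it was -0.18 pooled, -0.10 with hairpin #1 and -0.23 with hairpin #3. For TEAD4, whose log2 fold change was 0.72 in the pooled comparison, the neighbours' median was 0.13. For VGLL3, the neighbours' median between the hairpins was -0.06 beside a difference of -1.28 for the gene.

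The upstream part of the pathway was examined in 33 kinases, adaptors and junction proteins of the cascade, of which 32 were tested, MAP4K1 having too few reads. In the pooled comparison, 5 of 32 were called, beside 14.7% of all tested genes, 2 higher (background 7.26%) and 3 lower (background 7.40%). The higher calls include AMOT, which passed the filter on low counts only through the knockdown libraries. At an adjusted p under 0.05 alone 15 passed, 9 higher and 6 lower, beside 33.0% of all tested genes. The median log2 fold change of the 32 genes was 0.12, and that of all tested genes was 0.0045.

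The called genes of the cascade stood at different steps of it. AMOT, the angiomotin that holds YAP at junctions, rose from 0.442 ± 0.308 CPM in control to 6.12 ± 1.49 and 6.90 ± 1.70 CPM with hairpins #1 and #3 (pooled log2 fold change 3.87, SE 0.373). AMOT had only 5, 16 and 6 reads in control libraries A, B and C, and between 113 and 166 in the knockdown libraries. It passed the filter on low counts through the knockdown libraries, so its fold change is a description, though it is among the genes counted as called. Its paralogue AMOTL1, from a much higher level, fell from 228 ± 11.3 to 77.4 ± 4.81 and 109 ± 6.39 CPM (log2 fold change -1.29, SE 0.142, edgeR adjusted p = 2.46e-05). AMOTL1 also differed between the hairpins at an adjusted p under 0.05, though not by 2-fold (log2 difference 0.49, edgeR adjusted p = 0.00349).

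STK3, the core kinase MST2, fell from 89.5 ± 11.7 to 26.9 ± 1.80 and 34.7 ± 1.68 CPM (pooled log2 fold change -1.54, SE 0.127, edgeR adjusted p = 2.28e-06). STK3 lies on chromosome 8. Unlike the 10 genes of the set, the cascade genes were not set beside their chromosomal neighbours, so a shift of the region was not examined. WWC1, the adaptor KIBRA that promotes LATS activation, fell from 468 ± 24.8 to 201 ± 10.2 and 203 ± 10.8 CPM (log2 fold change -1.21, SE 0.0761, edgeR adjusted p = 2.18e-07). FAT4, an atypical cadherin, rose from 29.4 ± 6.27 to 60.6 ± 12.9 and 77.0 ± 10.4 CPM (log2 fold change 1.23, SE 0.192, edgeR adjusted p = 0.000396). In all 5 genes every knockdown library lay beyond every control library, as in 33.1% of all tested genes. The 5 were picked as called in this comparison, so the separation is a description.

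With hairpin #1 alone 7 of the 32 cascade genes were called (21.9%, beside 16.3% of all tested genes), and with hairpin #3 alone 6 (18.8%, beside 15.3%). Both counts include the 5 genes above, AMOT among them, with FRMD6 and TNIK added for hairpin #1 and DCHS1 for hairpin #3. FRMD6 and TNIK were named after their values were seen. The hairpin #1 count fell to 5 without control library B or hairpin #1 library B, where FAT4 and FRMD6 were lost, and without hairpin #1 library A, where FAT4 and TNIK were lost. Between the hairpins 1 of 32 was called, beside 3.93% of all tested genes, which is near the same share. It was DCHS1, the cadherin ligand of FAT4. DCHS1 averaged 1.09 ± 0.265 CPM in control libraries, 1.31 ± 0.557 CPM under hairpin #1 and 2.98 ± 0.724 CPM under hairpin #3 (log2 difference 1.19, SE 0.335, edgeR adjusted p = 0.0347). The call was lost when any of 4 single libraries was left out, with adjusted p-values of 0.0685 without hairpin #1 library A, 0.127 without hairpin #1 library C, 0.105 without hairpin #3 library A and 0.113 without hairpin #3 library B.

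Beyond CTGF and CYR61, a signature of 20 further YAP and TAZ target genes was examined, all of which were tested. In the pooled comparison 3 of 20 were called, 1 higher and 2 lower, which is near the share of all tested genes (14.7%, with 7.26% higher and 7.40% lower). At an adjusted p under 0.05 alone 11 passed, 6 higher and 5 lower, beside 33.0% of all tested genes. The median log2 fold change was 0.26, beside 0.0045 for all tested genes. Each hairpin alone gave 3 called genes, the same 3 in both cases, again near the background of 16.3% with hairpin #1 and 15.3% with hairpin #3. The median log2 fold change was 0.231 with hairpin #1 and 0.255 with hairpin #3, beside 0.00088 and -0.0029 for all tested genes. The groups did not overlap for 13 of 20 targets with hairpin #1 (47.3% of all tested genes) and 16 of 20 with hairpin #3 (47.9%). Without the libraries marked A the count was 4 in the pooled comparison and with hairpin #3, FOXF2 being added. FOXF2 was also added in both when control library A alone was left out and with hairpin #3 when hairpin #3 library B or C was, and IGFBP3 was added with hairpin #1 when control library C was. Both were named after their values were seen. The list shares LATS2, AMOTL2 and PTPN14 with the cascade list.

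The called targets moved in both directions. CCDC80, a secreted matrix protein gene, rose from 214 ± 60.9 CPM in control to 2196 ± 906 and 1525 ± 355 CPM (pooled log2 fold change 3.12, SE 0.352, edgeR adjusted p = 3.06e-05). F3, which encodes tissue factor, fell from 972 ± 56.1 to 326 ± 44.8 and 391 ± 35.2 CPM (log2 fold change -1.44, SE 0.118, edgeR adjusted p = 2.09e-06). ANKRD1, a nuclear ankyrin repeat protein gene often used beside CTGF and CYR61 as a YAP readout, fell from 61.7 ± 11.4 to 22.5 ± 3.29 and 24.4 ± 7.30 CPM (log2 fold change -1.40, SE 0.17, edgeR adjusted p = 5.62e-05).

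Thus these 3 readouts had different values in the same libraries. CTGF was higher in 6 of 6 knockdown libraries, CYR61 overlapped with control, and ANKRD1 was lower in 6 of 6. ANKRD1 was picked from the 20 targets as called in this comparison, so its separation is a description. Knockdown and control did not overlap for 12 of the 20 targets, beside 33.1% of all tested genes. CTGF and ANKRD1 both carry the TEAD motif more than once in the windows printed above, and CYR61 was not searched. Of the 20 targets 15 had a window, and 7 of these held the motif, beside 14.3% of all genes with a window. The called genes CCDC80 and F3 held no copy. NUAK2, named here after its values were seen, held 2 copies and stood at 84.3% of control with hairpin #1 and 95.4% with hairpin #3 (pooled log2 fold change -0.15, edgeR adjusted p = 0.448). Between the hairpins 0 of 20 targets were called by edgeR or by DESeq2, beside 3.93% of all tested genes by edgeR, at which share fewer than 1 of 20 would be called. At an adjusted p under 0.05 alone 2 passed, beside 11.6% of all tested genes. These were NT5E (log2 difference -0.46, edgeR adjusted p = 0.018) and IGFBP3 (-0.84, adjusted p = 0.0397), NT5E too being named after its values were seen.

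**Figure D4:**
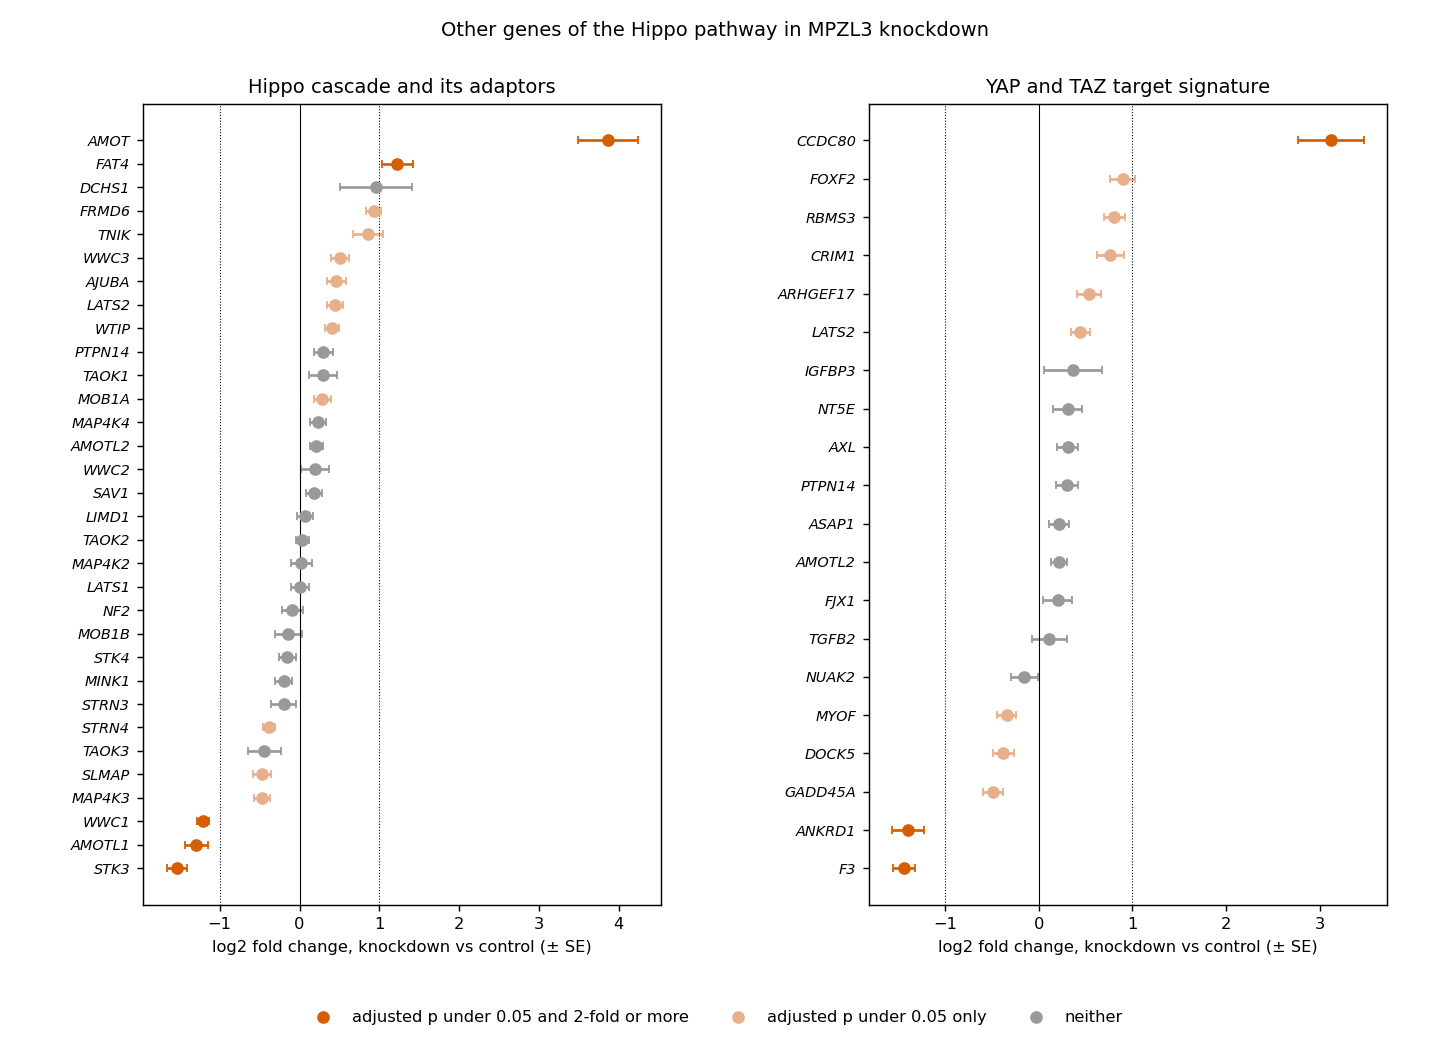
Pooled log2 fold change (± SE) of the 32 tested cascade genes (left) and the 20 target genes (right), ordered by value; dark orange marks an adjusted p under 0.05 with at least a 2-fold change, light orange an adjusted p under 0.05 alone and grey neither, and dotted lines mark 2-fold. In both lists, genes past the test lie on both sides of 0. The cascade values run from AMOT (3.87) to STK3 (-1.54) and the target values from CCDC80 (3.12) to F3 (-1.44). AMOT passed the filter on low counts through the knockdown libraries, so its value is a description.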

How the data were processed

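Poly(A) RNA of 9 OVCA433 libraries was sequenced, and the authors deposited raw counts of reads for each gene, not normalized. All 9 columns were assigned to their samples by label. The submitters' processing notes name HISAT2 2.0.5, featureCounts 1.5.0-p3 and hg38, and the annotation release is not given in the sources used here. All 58676 gene identifiers were in GENCODE 29, at the same position for 95.2%. Columns of annotation were used for positions and lengths.

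Genes were filtered with filterByExpr (minimum count 10, minimum total count 15), which left 15975 genes with 99.9% of the counts. TMM factors and edgeR 4.0.16 (glmQLFit, glmQLFTest) in R 4.3.3 were used, with Benjamini-Hochberg adjustment over all tested genes. A gene was called at an adjusted p under 0.05 and a change of 2-fold or more (1 on the log2 scale). The pooled comparison set 6 knockdown libraries against 3 control libraries, as in the study, which used DESeq2. The hairpins were compared with control and with each other in 1 model of 3 groups (biological coefficient of variation 13.1%, and 18.2% in the pooled model). Both hairpins share the control libraries. Intervals are 95%. P-values measure the spread between these libraries. Motifs were counted in RefSeq windows on GRCh38.p14. The scripts were tested on simulated data.

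The 10 genes and the lists were chosen with earlier results of these data known. Named genes were the 10, MPZL3, VGLL2, TEAD2, up to 5 genes per list with the largest called pooled change, up to 3 with the largest called difference between hairpins, and the 5 genes most like VGLL1. Alternatives were no filter, a filter at a mean of 1 CPM, library totals, size factors of DESeq2, its Wald test (version 1.42.0), the replicate letter as a block, the 3-group model for the pooled comparison, only the groups compared, no libraries of letter A, each library left out, shares without length, and 30 or 100 neighbours.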

Additional observations from a re-analysis of the deposited data

Results flagged for a closer look

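VGLL3 was the 1 gene of the set for which the effects of the hairpins against the same control differed by a direct test. The log2 difference of hairpin #3 against hairpin #1 was -1.28 (edgeR adjusted p = 0.000245), with 3 of 3 hairpin #3 libraries below all hairpin #1 libraries. Over the alternatives that left out 1 library it ranged from -1.46 to -1.13, with a largest adjusted p of 0.00299. The cause was not tested. Groups of 3 libraries are too small for a test of single outlying libraries.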

How the results depend on the processing

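Of 901 log2 fold changes with a test that were recomputed under the alternatives, 880 kept their direction and side of the threshold and 12 turned direction. Of 459 values against control of the genes of the set other than VGLL1, described without a test, 12 turned direction. The pooled count of called genes was 2342, and leaving out 1 library gave 2096 to 2490. DCHS1 was the 1 cascade gene called between the hairpins, and without the libraries of letter A the count was 0 (DCHS1 log2 difference 1.01, edgeR adjusted p = 0.0941), as it was when single libraries were left out (range 0 to 1). The call of FAT4 with hairpin #1 (log2 fold change 1.04) fell under the 2-fold threshold, at 0.89 to 0.97, without control library B or hairpin #1 library A or B, and DCHS1 passed in the pooled comparison without hairpin #1 library C (1.13, edgeR adjusted p = 0.0361). Against control, the values of the set that turned were those of CYR61 with hairpin #1 (0.0369, range over all alternatives -0.0818 to 0.0966), YAP1 with hairpin #1 (-0.0008, -0.052 to 0.0532) and WWTR1 pooled (-0.0172, -0.1162 to 0.1632). Among values with a test, none that turned was called. Between the hairpins, the range without 1 library was -0.13 to 0.06 for TEAD1, -0.079 to 0.0192 for TEAD3 (0.0020 with library totals), -0.0322 to 0.3705 for AMOT, -0.0315 to 0.0467 for WWC1 and -0.1464 to 0.2671 for ANKRD1, and with hairpin #1 against control it was -0.0131 to 0.1355 for TEAD2 and -0.1089 to 0.5195 for DCHS1. Shares not divided by length were, in control, hairpin #1 and hairpin #3, 48.2%, 39.8% and 39.8% for TEAD1, 13.1%, 14.7% and 16.5% for TEAD2, 26.1%, 21.9% and 22.2% for TEAD3, 12.6%, 23.6% and 21.4% for TEAD4, 41.3%, 52.0% and 58.5% for YAP1, 17.0%, 23.9% and 22.0% for WWTR1, and 10.8%, 15.7% and 7.61% for VGLL3, with 25.3% for VGLL1 and 5.66% for VGLL4 in control, since the gene models differ in length. With 30 neighbours the medians that moved were 0.0843 (VGLL3), -0.1239 (TEAD3) and -0.0004 (CYR61) pooled, -0.1539 (TEAD3) and -0.1934 (YAP1) with hairpin #1, -0.1104 (TEAD3), 0.1881 (TEAD4) and -0.0859 (CYR61) with hairpin #3, and -0.0254 (VGLL1), -0.0966 (TEAD4) and -0.067 (CTGF) between the hairpins. With 100 neighbours they were 0.0857 (VGLL3), -0.0013 (TEAD3) and 0.074 (TEAD4) pooled, 0.098 with hairpin #1 (TEAD4), 0.0511 (TEAD4) and 0.0057 (CYR61) with hairpin #3, and -0.0785 (VGLL1) and -0.0259 (TEAD3) between the hairpins.

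Libraries of the same letter share no stated origin. The correlations of their deviations from the group means ran from 0.0515 to 0.466, and those of libraries of different letters from -0.437 to 0.185, and not every library correlated best with its own letter. With the replicate letter as a block, 2306 genes were called in the pooled comparison, 2675 with hairpin #1, 2515 with hairpin #3 and 754 between the hairpins, in place of 2342, 2605, 2443 and 628. The block left the call of each of the 10 genes between the hairpins as it was, though the adjusted p of CTGF became 0.00935 and that of WWTR1 0.00316. No filter gave 0.00013 for CTGF and 0.0462 for WWTR1, and no libraries of letter A gave 0.0156 and 0.0468, all with log2 differences under 1. The bounds for VGLL1 are set by depth, since 3 reads equalled up to 0.177 CPM in a library.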

Other observations

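Libraries of letter A stood at the same end of their group for several of these genes. Library A was the lowest of its group in control, hairpin #1 and hairpin #3 for VGLL3, VGLL4 and CTGF, and the highest in all 3 groups for TEAD4, YAP1 and WWTR1. The targets CCDC80 and ANKRD1 also had their lowest value in library A of each group, at 147, 1156 and 1133 CPM for CCDC80 and 49.3, 18.7 and 19.1 CPM for ANKRD1. What the letters stand for is not given in the sources used here.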
